A study of Mus musculus with 22 samples.

Results

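Lungs of mice that breathed methacholine in the short protocol were compared with lungs of mice that breathed phosphate-buffered saline (PBS) on the same schedule. The comparison is set by the sample labels and uses 7 of the 22 libraries of the series, 4 methacholine (MCh) and 3 PBS. The study sequenced total RNA of mouse lung, in stranded libraries, after aerosols of PBS, MCh or ovalbumin (OVA); a short and a long schedule were each run with 3 PBS, 4 MCh and 4 OVA samples. All mice were BALB/c, spelled BABL/c in one field of the labels, and all had been sensitized through the peritoneum at 49 days of age and boosted at 63 days, so the PBS and MCh groups of both protocols share that treatment. The labels do not name the sensitizing agent, and the titles call the PBS and MCh animals normal while the treatment field calls them sensitized. The short aerosol exposure began at 70 days of age and ran for 3 consecutive days by the treatment field, whereas the titles say 4 days for MCh and 3 days for PBS and OVA. The long protocol gave the aerosol 3 times a week for 4 weeks. The series text speaks of tracheal tissue and the samples of lung. The surfactant gene Sftpc lay at 5341 to 13050 FPKM in the 7 libraries. Only 4 of 12 tracheal cartilage genes passed the filter on low values, with a summed level of 4.11 to 19.3 FPKM. FPKM of different genes are not on the same scale here.

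Methacholine is a stable relative of acetylcholine that activates muscarinic receptors. On airway smooth muscle the M3 receptor, encoded by Chrm3, couples through Gq to phospholipase C, calcium release and myosin phosphorylation, and the muscle contracts and narrows the airway without an allergen. Contraction also stretches and compresses the epithelium, and polymerized actin releases MRTF proteins that act with SRF on contractile genes such as Tagln, Acta2 and Cnn1. OVA, in contrast, provokes allergic inflammation in mice sensitized to it.

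Levels are given as FPKM, fragment counts scaled to transcript length and sequencing depth, and differences as MCh minus PBS on the log2(FPKM + 0.5) scale with the standard error, from limma over the 15682 genes tested. The deposited gene values carry a constant of their own for each gene, so levels are to be compared between libraries and not between genes. The summed level of a list weights its members by these constants and serves only to compare libraries. Depth, estimated from the steps of the low FPKM values, was 17450000 fragments in MCh library 1 and 21900000 to 25250000 in the other 6. A pair of MCh libraries stood apart. MCh library 1 listed 28.3% of the genes at 0, against 22.7% to 24.5% in the other 6, including 7 genes that reached 1 FPKM in all of them. In MCh library 4 long transcripts were low and short ones high: the rank correlation, across genes, of its log ratio to the mean of all 22 libraries with transcript length was -0.67, against -0.04 to 0.30 in the others. Results are therefore also given without these libraries and with array weights, a limma option that lets libraries with larger residuals count less, which gave MCh libraries 1 to 4 the weights 0.21, 5.44, 1.38 and 0.08. On the MCh side, values with array weights thus rest mostly on library 2. They reuse the libraries in which genes were chosen and are no separate test of those genes. The labels call the samples biological replicates and tie none to a named animal.

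A single gene passed the test: Tagln rose and 0 genes fell (limma), while 1175 genes (7.49%) had an unadjusted p under 0.05. This call is 0.00638% of the genes tested. All 4 MCh libraries lay above all 3 PBS libraries for 508 genes (3.24%) and below them for 866 (5.52%), and these shares are the background for the counts of separated genes below. The median difference of all genes tested was -0.05, and 0.00 with array weights. With array weights 165 genes (1.05%) were higher and 175 (1.12%) lower at the same adjusted threshold. Without MCh libraries 1 and 4 1 gene again passed, and it was Asns, chosen here after its value was seen, and not Tagln. The plot of all genes shows how the separated genes spread to both sides of 0.

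**Figure D1:**
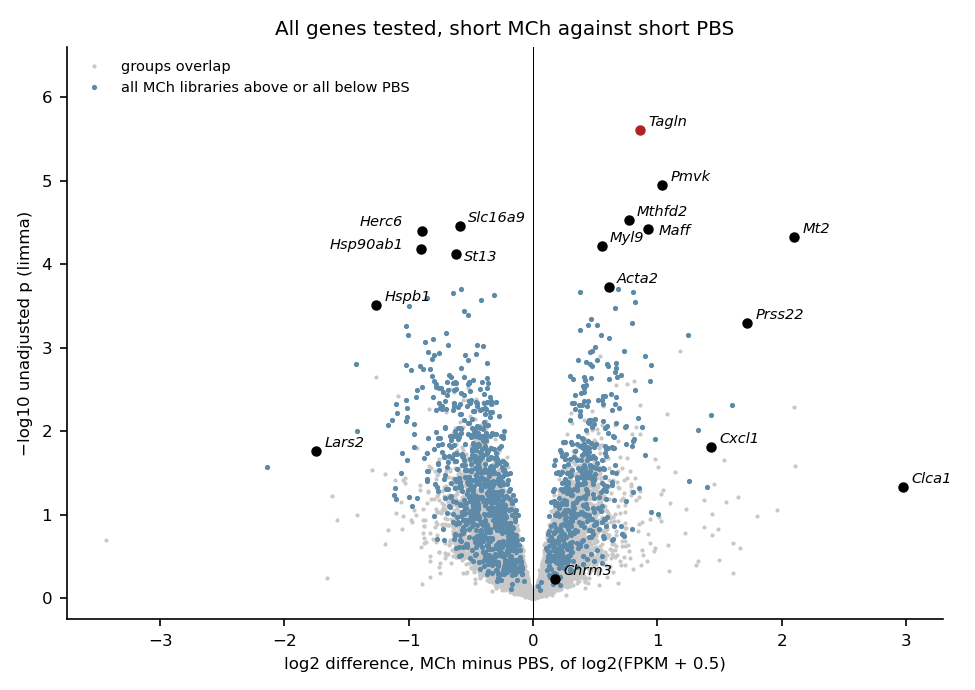
Difference (x axis, MCh minus PBS on the log2(FPKM + 0.5) scale) against −log10 of the unadjusted limma p (y axis) for the 15682 genes tested, 1 point per gene. Blue points are the 508 higher and 866 lower genes whose groups do not overlap, grey points the rest, and Tagln in red is the gene that passed at an adjusted p under 0.05.

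A smooth muscle contractile gene headed the higher side, and several others of its kind lay above PBS in every MCh library. Tagln, which encodes the actin-binding protein transgelin of smooth muscle (chromosome 9, 45929628 to 45936058, mm10), read 167, 154 and 138 FPKM in the PBS libraries and 250, 258, 260 and 353 FPKM in MCh libraries 1 to 4. Every MCh library lay above every PBS library, and MCh library 4 was the highest. The means were 153 ± 14.4 FPKM (SD, n = 3) and 280 ± 48.8 FPKM (SD, n = 4), and Tagln rose by 0.86 ± 0.13 (adjusted p = 0.0392, limma; 95% interval 0.59 to 1.13). Without MCh libraries 1 and 4 the difference was 0.76 with an adjusted p of 0.0991. The size held between 0.74 and 0.93 when any single library was left out, but only without MCh library 1 did the adjusted p stay under the threshold (0.0278); the others gave 0.0585 (without MCh library 4) to 0.718 (without PBS library 3), and PBS libraries 1 and 2 gave 0.11 and 0.157. With array weights it was 0.76 with an adjusted p of 1.3e-04, and with the length trend removed 0.78 with an adjusted p of 0.051.

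Acta2, the smooth muscle alpha-actin (chromosome 19, 34240336 to 34255585), read 101.5, 93.4 and 70.8 FPKM with PBS and 150.1, 127, 125 and 134 FPKM with MCh. Its groups did not overlap, and the difference of 0.61 ± 0.13 missed the threshold (adjusted p = 0.217; 0.0218 with array weights). Myl9, the regulatory light chain whose phosphorylation starts smooth muscle contraction, read 10.8, 10.6 and 8.57 FPKM against 14.7, 15.1, 12.9 and 16.8 FPKM. Again all MCh libraries were above all PBS libraries, with a difference of 0.55 ± 0.11 (adjusted p = 0.116, limma). Myl9 passed in 2 of 22 alternatives, with array weights (adjusted p = 0.00272, limma) and when transcript values were summed. Without MCh libraries 1 and 4 its difference was 0.47 (adjusted p = 0.578, limma), and with the length trend removed 0.39 (adjusted p = 0.3185, limma). Cnn1, calponin, read 20.7, 20.9 and 11.3 FPKM against 24.4, 26.4, 27.1 and 25.3 FPKM, a difference of 0.59 ± 0.29 (adjusted p = 0.667; 0.0455 with array weights) in which PBS library 3 was low; without that library it was 0.3. A pair of further members did not overlap: the light chain Myl6, whose difference was 0.52 ± 0.16 and only 0.29 without MCh libraries 1 and 4, and Kcnmb1, the beta subunit of the calcium-activated potassium channel, at 0.55 ± 0.62 with MCh library 1 at 16.3 FPKM and the other 6 between 4.96 and 7.13 FPKM.

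Of the 28 smooth muscle contractile genes tested, 1 rose, 0 fell and 6 lay higher in all MCh libraries against a background of 3.24% of all genes, while 0 lay lower. Their median difference was 0.06 with all 7 libraries. It was 0.21 both without MCh libraries 1 and 4 and with array weights. Over all genes these medians were -0.05, 0.00 and 0.00. With array weights 4 of the 28 (Tagln, Acta2, Myl9 and Cnn1) passed upward, against 1.05% of all genes. Without MCh libraries 1 and 4, 0 of the 28 passed. The heavy chain Myh11 shows where the libraries part. It read 15.7, 19 and 14.6 FPKM with PBS and 27.1, 20.3 and 19.6 FPKM in MCh libraries 1 to 3, but 4.83 FPKM in library 4, and its difference was -0.1 ± 0.34 with all libraries and 0.28 without MCh libraries 1 and 4. Myocd, the cardiac and smooth muscle coactivator of SRF, had the same shape, with 0.52 to 0.74 FPKM for PBS, 0.8 to 0.98 FPKM in MCh libraries 1 to 3 and 0.17 FPKM in library 4. Srf itself differed by 0.06 ± 0.18. In bulk lung RNA, more smooth muscle cells and more RNA per cell cannot be told apart.

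**Figure D2:**
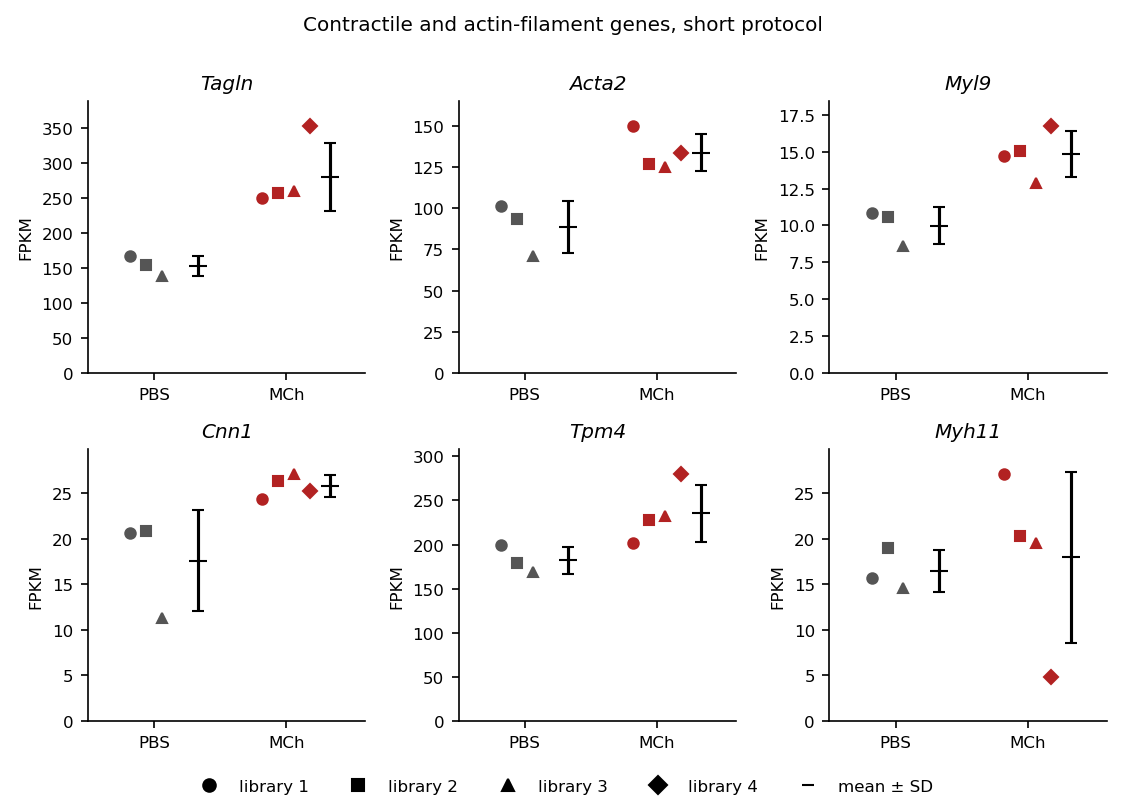
FPKM (y axis, from 0) of 6 contractile and actin-filament genes in the 3 PBS libraries (grey) and 4 MCh libraries (red) of the short protocol, 1 symbol shape per replicate number, with the mean ± SD of each group in black. In 5 panels every MCh library is above every PBS library; for Myh11, MCh library 4 at 4.83 FPKM is below all others.

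Another 2 genes of the actin filament were also higher in every MCh library. Tpm4, a non-muscle tropomyosin, read 169 to 199 FPKM with PBS and 202 to 280.0 FPKM with MCh (0.36 ± 0.1, adjusted p = 0.381; 0.00893 with array weights). Cfl1, the actin-severing protein cofilin, read 145 to 172 FPKM against 194 to 309 FPKM (0.48 ± 0.12, adjusted p = 0.366; 0.0239 with array weights), and its difference was 0.27 without MCh libraries 1 and 4. These were the 2 separated genes of 26 tested on the list of SRF and MRTF regulators and actin genes (7.69%, against 3.24% of all genes). On that list 0 passed, 17 of 26 differences were positive and the median was 0.05.

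The 300-base promoter windows of RefSeq (GRCm38.p6, 250 bases before to 50 after the start) were searched for the CArG box, the site SRF binds, because several SRF-dependent genes led the higher side. The box was searched as CCWWWWWWGG, where W is A or T, with no other base allowed. Windows were found for Acta2, Myl9, Cnn1 and Kcnmb1, and Tagln has no entry in the table. Myl9 (chr2:156775214-156775513, plus strand) held 1 match, beginning at -161 from the start and printed in capitals; the same bases match on both strands. Acta2, Cnn1 and Kcnmb1 held 0 matches to this exact pattern in the window. A site that departs from the pattern at any base would not be found, so these counts do not show that SRF sites are absent. Of 27025 promoter windows, 1.57% held a match, as did 1.39% of the 12376 windows of genes tested.
Myl9: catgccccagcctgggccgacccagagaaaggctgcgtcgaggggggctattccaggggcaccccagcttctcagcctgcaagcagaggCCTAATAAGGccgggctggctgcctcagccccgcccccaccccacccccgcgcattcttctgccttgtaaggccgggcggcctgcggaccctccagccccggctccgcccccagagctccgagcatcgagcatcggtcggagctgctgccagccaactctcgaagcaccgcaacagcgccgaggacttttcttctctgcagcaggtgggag

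The receptors that methacholine acts on did not separate the groups. Chrm3 read 0.85, 1 and 1.15 FPKM with PBS and 0.92, 1.15, 1.64 and 1.14 FPKM with MCh, so the groups overlapped, and the interval of its difference of 0.18 ± 0.32 ran from -0.5 to 0.86. Chrm2, the inhibitory autoreceptor of airway nerves, read 1.15 to 1.34 FPKM against 0.44 to 1.45 FPKM (-0.35 ± 0.36, interval -1.11 to 0.41). Chrm1 read 0.25 to 0.35 FPKM against 0.25 to 0.66 FPKM (0.23 ± 0.3). Ache, acetylcholinesterase, which splits acetylcholine but methacholine only slowly, differed by -0.02 ± 0.21, and Bche, which splits other choline esters, by 0.51 ± 0.35 with 3.98 to 7.12 FPKM against 4.05 to 12.1 FPKM. Of 12 genes of this list 7 passed the filter on low values, 3 were listed at 0 in all 7 libraries, and 0 passed the test or separated the groups.

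The chain from Gq to calcium and contraction held 33 genes tested, of which 0 passed, 1 (Kcnmb1) lay higher and 1 (Arhgef12) lower in all MCh libraries. Each was 3.03% of the list, against 3.24% and 5.52% of all genes. Arhgef12, the guanine nucleotide exchange factor LARG, which acts downstream of G proteins, read 264, 276 and 305 FPKM with PBS and 179, 236, 231 and 80.2 FPKM with MCh. Its difference was -0.75 ± 0.24 (adjusted p = 0.44), and -0.27 without MCh libraries 1 and 4, which were its lowest. Gnaq, the alpha subunit of Gq, differed by -0.34 ± 0.16 with all libraries and by -0.04 without MCh libraries 1 and 4; Itpr1, the receptor that releases calcium from the reticulum, by -0.5 and -0.13. The list's median moved from -0.19 to 0.05 in the same way. Plcb1, a phospholipase C that Gq activates, showed the split most plainly: it read 3.81, 3.68 and 4.84 FPKM with PBS, 8.84 and 9.85 FPKM in MCh libraries 2 and 3, and 2.97 and 2.42 FPKM in libraries 1 and 4, for a difference of 0.29 ± 0.34 (adjusted p = 0.87; 0.97 with adjusted p = 0.0129 with array weights, and 1.1 without MCh libraries 1 and 4).

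Genes that end Gq signals or relax the airway did not separate upward. Rgs2, Rgs4 and Rgs5, which speed the shutdown of Gq, differed by 0.07 ± 0.16, 0.18 ± 0.17 and -0.02 ± 0.41. Rgs4 lay between 2.92 and 3.95 FPKM with PBS and 3.6 and 4.32 FPKM with MCh. Pde4d, a phosphodiesterase that degrades cyclic AMP, differed by 0.17 ± 0.19 (0.35 with array weights, adjusted p = 0.0321). Of 26 genes tested 0 passed and 1, the guanylate cyclase subunit Gucy1a1, lay lower in all MCh libraries at -0.51 ± 0.3 (-0.24 without MCh libraries 1 and 4). That was 3.85% of the list, against 5.52% of all genes.

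Among genes tied to compression and stretch of the airway wall, Hbegf, a membrane-bound ligand of the EGF receptor, read 42.5, 35.3 and 44.2 FPKM with PBS and 68.8, 65.2, 52 and 58.8 FPKM with MCh. The groups were apart, with a difference of 0.58 ± 0.18 (adjusted p = 0.434; 0.0232 with array weights). F3, tissue factor, which airway epithelium releases under compression, read 39.7, 52.8 and 37.1 FPKM against 65, 58.8, 58.2 and 70.7 FPKM, also without overlap, at 0.55 ± 0.17 (adjusted p = 0.434; 0.0145 with array weights). These were the 2 separated genes of 15 tested on the list of the EGF receptor family and ligands (13.3%, against 3.24% of all genes). F3 is on that list but is neither, so of the family itself only Hbegf separated the groups. Egfr differed by -0.11 ± 0.23, with 6.24 FPKM in MCh library 4 and 11.6 to 14.8 FPKM in the other 6. Thbs1, thrombospondin, which activates latent TGF-beta, read 18.6 to 26.1 FPKM with PBS, 36.4 to 51.1 FPKM in MCh libraries 1 to 3 and 17.9 FPKM in library 4 (0.64 ± 0.29, adjusted p = 0.649; 1.08 with adjusted p = 0.0109 with array weights). The YAP targets Ccn1 and Ccn2 differed by 0.28 ± 0.3 and 0.28 ± 0.17, Tgfb1 by -0.06 ± 0.17 and Col1a1 by 0.22 ± 0.34. Of 24 TGF-beta pathway genes, 22 mechanosensing and YAP genes and 34 collagen and matrix genes tested, 0 passed and 0 lay higher in all MCh libraries. The receptor gene Tgfbr2 (-0.31 ± 0.2; -0.15 without MCh libraries 1 and 4) of the first list and Crim1 (-0.46 ± 0.18; -0.19 without MCh libraries 1 and 4) of the second lay lower in all MCh libraries. Tgfbr2 and Crim1 were 4.17% and 4.55% of their lists, against 5.52% of all genes. The medians of the 3 lists were -0.14, -0.14 and -0.01.

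Mt2 had the largest difference among list members without overlap, and Mt1 lay beside it. Both are metallothioneins, small cysteine-rich proteins that bind zinc and copper and are induced by metals, glucocorticoids and oxidative stress. Mt2 (chromosome 8, 94172618 to 94173567) read 25.1, 33.2 and 14 FPKM with PBS and 104, 78, 78.1 and 152 FPKM with MCh. Mt1, its neighbour, read 44.8, 46.9 and 36.2 FPKM against 110.3, 81.3, 79.9 and 148 FPKM. For both genes the lowest MCh library was above the highest PBS library, and MCh library 4 was the highest. The differences were 2.1 ± 0.4 for Mt2 (adjusted p = 0.107; 95% interval 1.26 to 2.95) and 1.25 ± 0.31 for Mt1 (adjusted p = 0.308; 0.6 to 1.9). They were 1.76 and 0.92 without MCh libraries 1 and 4, and 1.88 and 0.98 with array weights, where both passed (adjusted p = 0.00893 and 0.0203).

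The promoters of both genes are shown because zinc acts on them through metal response elements. The core was searched as TGCACNC and TGCGCNC on both strands in the RefSeq windows (GRCm38.p6, plus strand for both genes) and is printed in capitals. Mt1 (chr8:94178839-94179138) held 3 matches and Mt2 (chr8:94172368-94172667) held 4. Of 27025 windows of the same length 25.6% held at least 1 match and 2.0% held at least 3. Among the 12376 windows of genes tested these shares were 34.4% and 3.11%.
Mt1: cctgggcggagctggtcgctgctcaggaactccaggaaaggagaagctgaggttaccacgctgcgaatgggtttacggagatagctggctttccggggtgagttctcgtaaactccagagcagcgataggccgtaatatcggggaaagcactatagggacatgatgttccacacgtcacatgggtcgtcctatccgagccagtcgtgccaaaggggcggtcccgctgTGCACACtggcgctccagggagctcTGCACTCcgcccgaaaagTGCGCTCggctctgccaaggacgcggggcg
Mt2: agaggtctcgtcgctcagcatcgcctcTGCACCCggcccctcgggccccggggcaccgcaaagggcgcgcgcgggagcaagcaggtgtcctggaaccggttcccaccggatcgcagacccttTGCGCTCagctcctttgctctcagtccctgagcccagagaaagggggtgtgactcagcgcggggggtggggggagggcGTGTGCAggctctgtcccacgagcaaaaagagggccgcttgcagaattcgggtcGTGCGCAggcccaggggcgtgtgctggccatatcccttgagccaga

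Several chaperone genes lay lower with short MCh than with short PBS. Hspb1, the small heat shock protein HSP27, which also acts on actin filaments, read 874, 392 and 573 FPKM with PBS and 244, 208, 289 and 234 FPKM with MCh. Hsp90ab1, the constitutive cytosolic HSP90, read 637, 423 and 508 FPKM against 264, 307, 363 and 196 FPKM, and St13, a cochaperone that links HSP70 to HSP90, 49, 37.2 and 39.2 FPKM against 27.5, 27.2, 29.7 and 23.2 FPKM. In all 3 genes each MCh library was below each PBS library, and PBS library 1 was the highest of its group. The differences were -1.26 ± 0.29, -0.9 ± 0.18 and -0.62 ± 0.12 (adjusted p = 0.226, 0.116 and 0.12; 0.00696, 0.0058 and 0.0052 with array weights). Without MCh libraries 1 and 4 they were -1.24, -0.63 and -0.54. Short PBS was the highest group of the series for all 3 genes. Mean Hspb1 was 613 FPKM with short PBS, 244 with short MCh, 181 with long PBS, 168 with long MCh, 265 with short OVA and 250 with long OVA. In the same order Hsp90ab1 read 523, 282, 304, 284, 310 and 365 FPKM, and St13 41.8, 26.9, 25.4, 28, 33 and 31.05 FPKM. Why short PBS was high was not tested. Hspd1, the mitochondrial HSP60, read 24 to 35.4 FPKM against 16.1 to 21.2 FPKM (-0.6 ± 0.19), and Ahsa2, a relative of the HSP90 activator Aha1, 24.6 to 53.4 FPKM against 16.1 to 18.6 FPKM (-0.94 ± 0.28).

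On the list of 22 heat shock and stress genes tested, 0 passed, 5 lay lower in all MCh libraries (Hsph1, Hsp90aa1, Hspb1, Hspd1 and Hspa5) and 5 lay higher (Mt1, Mt2, Hmox1, Gclm and Cdkn1a), against 5.52% and 3.24% of all genes. The higher members are metal-binding, heme-degrading, glutathione-making and cell cycle inhibiting proteins, and the lower ones are protein-folding chaperones. With array weights Mt1 and Mt2 passed upward and Hspb1, Hspd1 and its partner Hspe1 downward. These were 2 and 3 of the 22, against 1.05% and 1.12% of all genes. The list's median was 0.04.

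**Figure D3:**
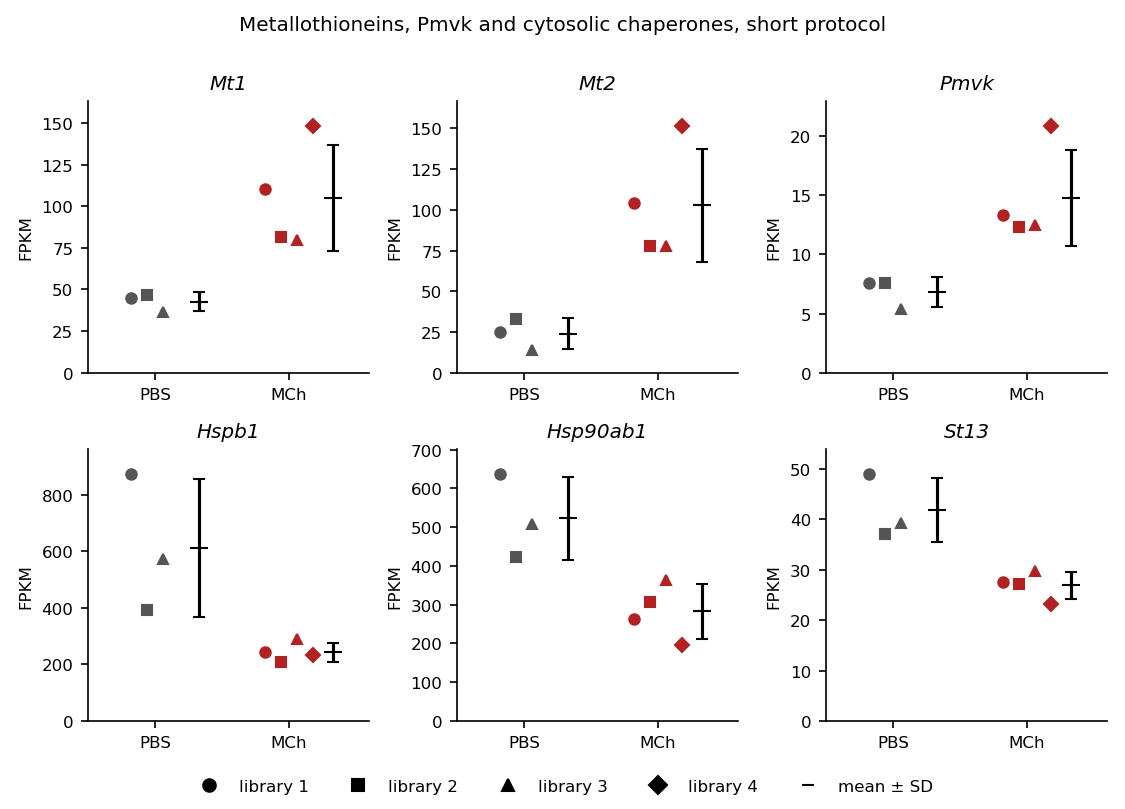
FPKM (y axis, from 0) of Mt1, Mt2, Pmvk, Hspb1, Hsp90ab1 and St13 in the 3 PBS libraries (grey) and 4 MCh libraries (red), 1 symbol shape per replicate number, with the mean ± SD of each group in black. The upper 3 genes are higher and the lower 3 lower in every MCh library than in every PBS library.

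Other genes with the smallest p followed on the higher side. Pmvk, a kinase of the mevalonate pathway, read 7.56, 7.56 and 5.39 FPKM with PBS and 13.3, 12.3, 12.5 and 20.8 FPKM with MCh. The groups were apart at 1.04 ± 0.18 (adjusted p = 0.0878; 0.00152 with array weights), and MCh library 4 was the highest. Mthfd2, a mitochondrial folate enzyme, read 1.07, 1.3 and 0.93 FPKM against 2.36, 2.25, 2.21 and 2.03 FPKM (0.77 ± 0.14, adjusted p = 0.104; 0.00129 with array weights), with the MCh libraries close together. Maff, a small Maf transcription factor, read 18.1, 18.5 and 14 FPKM against 29.6, 32.8, 31.1 and 35.8 FPKM (0.92 ± 0.17, adjusted p = 0.104). Nt5e, the ectoenzyme CD73 that makes adenosine, read 41.3, 44.9 and 33.4 FPKM against 73.1, 71.6, 61.9 and 51.2 FPKM (0.68 ± 0.15, adjusted p = 0.217). The cold-inducible RNA-binding protein Rbm3 (0.81 ± 0.18) and the zinc finger gene Zfp207 (0.38 ± 0.08) completed the leading genes, also without overlap. All 6 of these passed with array weights (adjusted p between 0.00129 and 0.00623, limma). That fit reuses the libraries in which their small p chose them, so it is no separate support.

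On the lower side Slc16a9, a monocarboxylate transporter family member, read 41.7, 47.6 and 46 FPKM with PBS and 24.2, 33.3, 30.5 and 31.9 FPKM with MCh (-0.59 ± 0.11, adjusted p = 0.104). Herc6, an interferon-induced ubiquitin ligase, read 22.8, 19.8 and 25.3 FPKM against 12, 13.9, 12.1 and 9.98 FPKM (-0.89 ± 0.17, adjusted p = 0.104). Neither gene's groups overlapped. Mboat7, a phospholipid acyltransferase (-0.58 ± 0.13; -0.39 without MCh libraries 1 and 4), Pnpla7, a lysophospholipase (-0.65 ± 0.14), the initiation factor Eif4b (-0.31 ± 0.07), the collagen lysyl hydroxylase Plod1 (-0.85 ± 0.19) and the transcription factor Csrnp1 (-1 ± 0.23) lay lower in all MCh libraries, with adjusted p between 0.217 and 0.226. All 7 passed with array weights, again in a fit of the libraries that chose them.

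Some separated genes had large differences and a wide spread. Prss22, an airway serine protease, read 0.04, 0 and 0.23 FPKM with PBS and 4.54, 1.02, 0.42 and 1.4 FPKM with MCh, with MCh library 1 far above the rest (1.72 ± 0.41, adjusted p = 0.28; 1.03 without MCh libraries 1 and 4). Cldn2, a pore-forming tight junction protein, read 0.22 to 0.4 FPKM against 4.53, 1.87, 1.18 and 1.36 FPKM (1.6 ± 0.5, adjusted p = 0.434). Ramp3, which turns the calcitonin receptor-like receptor into an adrenomedullin receptor, read 6.4 to 12.3 FPKM against 19.9, 25, 25 and 37.5 FPKM (1.44 ± 0.47, adjusted p = 0.464; 0.00243 with array weights). Lars2, the mitochondrial leucyl-tRNA synthetase, read 7.26, 1.89 and 16 FPKM against 1.21 to 1.75 FPKM, so its difference of -1.75 ± 0.67 came with PBS libraries 1 and 3. Amigo1 (-1.43 ± 0.39), Peg10 (-1.17 ± 0.4) and Gprasp1 (-1.14 ± 0.38) were lowest in MCh libraries 1 and 4, and their differences were -0.64, -0.53 and -0.66 without those.

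Some genes that missed the threshold with all libraries passed where libraries of low weight were left out; those not named above were chosen after their values were seen. Asns, asparagine synthetase, read 60.1, 57.5 and 51.1 FPKM with PBS and 51.1, 81.8, 106 and 83.1 FPKM with MCh, so MCh library 1 fell among the PBS libraries; its difference was 0.47 ± 0.15 with all libraries (adjusted p = 0.445) and 0.73 without MCh libraries 1 and 4 (adjusted p = 0.0208). Without the 4 libraries whose weight was under 0.25 (MCh 1 and 4 and 2 of the long MCh group), 8 genes (0.0512%) were higher and 2 (0.0128%) lower. The higher genes were Tagln, Pmvk, Ramp3, Asns, Plcb1, Entpd1, which encodes the ectonucleotidase CD39, Fmnl2, an actin-nucleating formin, and Nos3, the endothelial nitric oxide synthase; the lower were Osgin2 and Mllt3. Nos3 read 11.3 to 14.6 FPKM with PBS, 18.4 to 21.7 FPKM in MCh libraries 1 to 3 and 11.9 FPKM in library 4. Entpd1 read 76.1 to 79 FPKM against 81.8 to 108 FPKM without overlap, and Osgin2 read 11.3 to 11.4 FPKM with PBS, 4.9 and 5.5 FPKM in MCh libraries 2 and 3, and 15.2 and 13.8 FPKM in libraries 1 and 4.

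Allergic inflammation genes were at low levels or uneven between libraries. Il13, the main driver of mucus production in allergy, was listed at 0 in 6 libraries and at 0.1 FPKM in MCh library 3. Clca1, a goblet cell product, read 7.85, 1.44 and 0.2 FPKM with PBS and 158, 49.6, 0.14 and 18.7 FPKM with MCh, so MCh library 3 lay below all PBS libraries and the difference of 2.97 ± 1.4 missed the threshold (adjusted p = 0.66). Retnla, a product of alternatively activated macrophages and epithelium, read 128, 46.5 and 19.9 FPKM against 299, 177, 82.4 and 470.1 FPKM (2.1 ± 0.67, adjusted p = 0.437), with overlap in MCh library 3. Chil4 (2.11 ± 0.87) and Muc5ac (0.67 ± 0.63) also overlapped. Of 21 goblet cell and mucus genes tested 0 passed and 0 separated the groups; the median was 0.66, and 0.31 without MCh libraries 1 and 4. The summed level of this list was 4018 FPKM in MCh library 1, 1048 in library 2, 167 and 222 in libraries 3 and 4, and 166 to 581 FPKM with PBS. Basal and squamous epithelial markers moved with it: they summed to 37.3 FPKM in MCh library 1 and to 0.79 to 8.98 FPKM in the other 6, with 3 of 11 members at 0 in all 7 libraries, and Krt5 read 9.85 FPKM in MCh library 1. Their part in the result was not tested.

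Neutrophil-attracting chemokines separated the groups. Cxcl1 read 1.79, 1.75 and 1.12 FPKM with PBS and 7.31, 6.6, 3.49 and 3.51 FPKM with MCh, and Cxcl2 read 0.43, 0.34 and 0.52 FPKM against 3.15, 2.63, 1.16 and 1.05 FPKM. In both, MCh libraries 1 and 2 were higher than 3 and 4. The differences were 1.43 ± 0.54 and 1.33 ± 0.46 (adjusted p = 0.578 and 0.543; 0.00916 and 0.00788 with array weights). Lcn2 (0.58 ± 0.26, and 0.31 without MCh libraries 1 and 4) lay apart too. These 3 were the separated genes of 23 tested on the neutrophil and acute inflammation list, where 0 passed. All lay higher, 13.0% of the list against 3.24% of all genes. Of 19 type 2 cytokine and chemokine genes tested 0 passed, 1 (the epithelial cytokine gene Tslp, 2.56 to 2.78 FPKM against 3.41 to 4.97 FPKM) lay higher and 1 (Stat6, the transcription factor of IL-4 and IL-13 receptors, 38.9 to 43 FPKM against 25.7 to 37 FPKM, -0.37 with all libraries and -0.21 without MCh libraries 1 and 4) lower. Tslp and Stat6 were each 5.26% of the list tested, against 3.24% of all genes higher and 5.52% lower. Of 12 eosinophil genes 0 separated the groups.

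Glucocorticoid-responsive genes had a positive median and no gene past the threshold. Fkbp5, a cochaperone of the glucocorticoid receptor that the hormone induces, read 89.3, 134 and 102 FPKM with PBS and 149, 163, 183 and 108 FPKM with MCh, overlapping through MCh library 4 (0.47 ± 0.2, adjusted p = 0.64; 0.68 with adjusted p = 0.0274 with array weights). Sgk1, a kinase the hormone also induces, differed by 0.32 ± 0.15 (0.46 with adjusted p = 0.0275 with array weights) and Tsc22d3, known as GILZ, by 0.39 ± 0.3 without overlap. Of 15 tested 0 passed, the median was 0.14, and it was 0.13 without MCh libraries 1 and 4. Among 25 immediate early genes Fos differed by 0.00 ± 0.33, Jun lay lower in all MCh libraries (-0.43 ± 0.14; -0.21 without MCh libraries 1 and 4) and Nr4a3 read 1.16 to 2.04 FPKM with PBS, 3.17 to 5.75 FPKM in MCh libraries 1 to 3 and 1.58 FPKM in library 4 (0.86 ± 0.27; 0.0058 as adjusted p with array weights).

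Circadian clock genes and endothelial markers lay low as lists, and both medians were near 0 without the libraries that stood apart. Of 18 clock genes tested 5 were lower in all MCh libraries (Arntl, Npas2, Nr1d1, Dbp and Bhlhe41) and 1, Nfil3, was higher. The shares were 27.8% and 5.56%, against 5.52% and 3.24% of all genes. On this list 0 genes passed, and the median was -0.33, against -0.03 without MCh libraries 1 and 4. Nr1d1, the repressor REV-ERB alpha, read 49.6 to 64.2 FPKM with PBS and 47.9, 49.4, 42.2 and 18.9 FPKM with MCh; the labels do not give the time of day of sampling. Of 13 endothelial markers 0 passed, 1 (Kdr, the VEGF receptor) lay lower in all MCh libraries at -0.8 ± 0.23, and the median of -0.4 moved to -0.08 without MCh libraries 1 and 4. Kdr read 77.1 to 104 FPKM with PBS, 65.7 and 74.5 FPKM in MCh libraries 2 and 3, and 43.7 and 29.7 FPKM in libraries 1 and 4. Ribosomal protein genes, which are short, had a median difference of 0.29, and 15 genes with long transcripts one of -0.27; without MCh libraries 1 and 4 these were -0.05 and 0.1.

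The summed markers of other cell types varied widely within both groups for some lists and less for others. Cardiac muscle markers summed to 386, 623 and 151 FPKM with PBS and 829, 548, 207 and 78.1 FPKM with MCh, with 0 of 15 members at 0 in all 7 libraries. Their part in the results was not tested. Fibroblast and pericyte markers summed to 1198 to 1466 FPKM with PBS and 1038 to 1390 FPKM with MCh, and their median difference was 0.01. Ciliated cell markers summed to 1018 to 1210 FPKM against 1156 to 1409 FPKM, with a median of 0.22. On that list 1 of 12 (8.33%) lay higher without overlap, against 3.24% of all genes. No marker list had a member past the threshold.

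**Figure D4:**
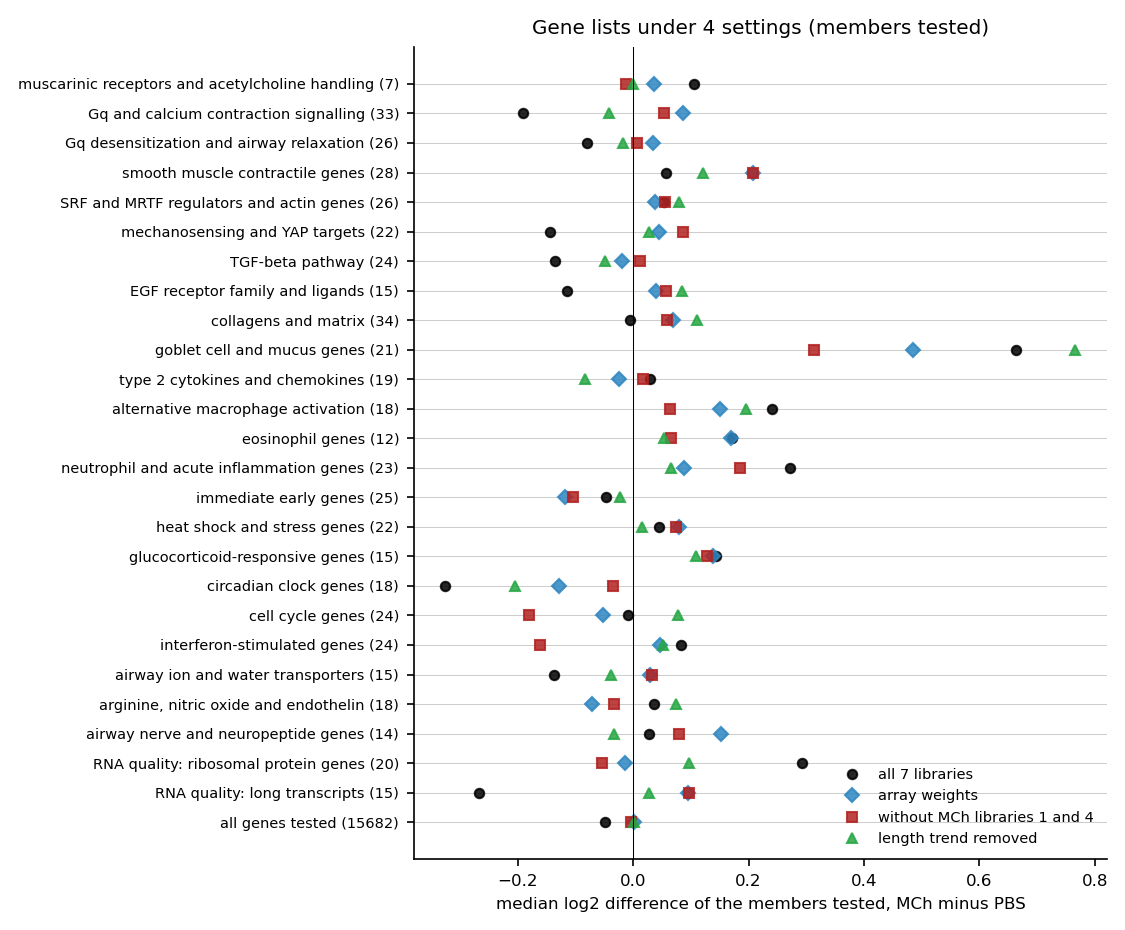
Median log2 difference of the members tested (x axis, MCh minus PBS) for 25 gene lists and all genes (y axis, number of members tested in parentheses) with all 7 libraries (black circles), array weights (blue diamonds), without MCh libraries 1 and 4 (red squares) and with the length trend removed (green triangles). The contractile list moves from 0.06 to 0.21 and the clock list from -0.33 to -0.03 without MCh libraries 1 and 4.

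The MCh effect was next set against that of the long protocol, whose PBS controls are separate libraries; the short libraries that chose the genes named so far enter this difference too. The difference between the protocols, long minus short, passed for 0 genes in either direction (limma), and 989 genes (6.31%) had an unadjusted p under 0.05. Long MCh libraries a and c, lettered in column order, listed 34.3% and 33.8% of the genes at 0, against 23.0% and 23.4% in b and d. Their estimated depths were 15100000 and 16200000 fragments and their array weights 0.066 and 0.088. This limits the long MCh values and the count of 0. Tagln read 157, 164 and 166 FPKM in the long PBS libraries and 173 to 255 FPKM in the 4 long MCh libraries, a difference of 0.36 ± 0.13 (adjusted p = 0.234) that was smaller than that of the short protocol by 0.5 ± 0.19 (unadjusted p = 0.0135, adjusted p = 0.761). Acta2 and Myl9 differed by -0.09 ± 0.13 and -0.02 ± 0.11 in the long protocol, and long minus short came to -0.69 ± 0.19 and -0.57 ± 0.15 (unadjusted p = 0.00146 and 0.00149, adjusted p = 0.761 for both). Mt2 was again higher in every long MCh library, with 27.6 to 52.3 FPKM against 10.9 to 16.4 FPKM (1.49 ± 0.4, adjusted p = 0.213). Pmvk read 8.22 to 11.5 FPKM against 4.51 to 5.32 FPKM there (0.87 ± 0.18, adjusted p = 0.0883), and long minus short was -0.17 ± 0.25.

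Chaperone genes, Retnla and Fkbp5 were among the genes with a small unadjusted p for the difference between the protocols. St13 was 0.75 ± 0.18 higher in the long than in the short effect and Ahsa2 1.59 ± 0.39. For St13 the long PBS libraries read 24 to 26.8 FPKM and the short ones 37.2 to 49 FPKM. Its long MCh libraries read 24.8 to 30.8 FPKM and the short ones 23.2 to 29.7 FPKM. The cause was not tested. Retnla had opposite signs, at -3.44 ± 0.67 in the long protocol against 2.1 in the short one (long minus short -5.54 ± 0.94, adjusted p = 0.162); its long PBS libraries read 224 to 1647 FPKM. Fkbp5 rose in the long protocol, from 34.3 to 40.2 FPKM with PBS to 103 to 179 FPKM with MCh (1.9 ± 0.2, adjusted p = 1.2e-04), and its long minus short difference of 1.44 ± 0.28 missed the threshold (adjusted p = 0.415). Cnn1, Hbegf and Maff differed between the protocols by -0.34 ± 0.4, -0.12 ± 0.25 and -0.12 ± 0.25.

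Finally, the 4 short OVA libraries were compared directly with the 4 short MCh libraries. OVA was higher than MCh for 1469 genes (9.37%) and lower for 912 (5.82%). The 4 OVA libraries leaned to short transcripts as MCh library 4 did, with rank correlations of -0.44 to -0.52, and quantile normalization gave 1445 higher and 1462 lower and the fit with the length trend removed 1296 higher and 1434 lower. Tagln did not separate the aerosols, at 248 to 282 FPKM with OVA and a difference of -0.04 ± 0.12 (adjusted p = 0.857), whereas Acta2 was higher with OVA, at 192 to 261 FPKM (0.79 ± 0.12, adjusted p = 1.2e-04), and so was Myl9, at 20 to 21.9 FPKM (0.49 ± 0.1, adjusted p = 0.00178; 0.23 with adjusted p = 0.101 with the length trend removed). Rgs4 was higher with OVA by 0.97 ± 0.15 (adjusted p = 1.5e-04). Mt2 read 154 to 240 FPKM with OVA, and its difference from MCh of 0.92 ± 0.37 missed the threshold (adjusted p = 0.109), which it passed without MCh library 4 (1.12, adjusted p = 0.039); it was 0.43 with the length trend removed.

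Several genes that led the MCh comparison were lower with OVA than with MCh; the MCh libraries enter both comparisons, so a gene chosen as high in them is more likely to lie lower elsewhere. Maff read 12.7 to 20.9 FPKM with OVA (-0.96 ± 0.16, adjusted p = 2.9e-04), Pmvk 7.02 to 9.12 FPKM (-0.8 ± 0.16, adjusted p = 0.00174) and Nt5e 36.9 to 52.2 FPKM (-0.55 ± 0.14, adjusted p = 0.00962). The YAP target Ccn2 was lower, at 56.7 to 74.5 FPKM (-1.06 ± 0.16, adjusted p = 7.3e-05), while Mthfd2 was higher with OVA by 0.52 ± 0.13 (adjusted p = 0.00997; 0.055 with quantile normalization). The glucocorticoid-induced Fkbp5 (-0.95 ± 0.18, adjusted p = 9.97e-04) and Per1 (-1.93 ± 0.35, adjusted p = 6.1e-04) were lower with OVA. Genes of allergic inflammation were far higher with OVA. Il13 read 4.42 to 10.7 FPKM (3.97 ± 0.21, adjusted p = 1.35e-10). Retnla differed by 7.07 ± 0.62 (adjusted p = 1.1e-07), the chemokine gene Ccl8 by 6.83 ± 0.34 (adjusted p = 5.2e-11), Chia1, acidic chitinase, by 4.25 ± 0.19 (adjusted p = 1.2e-11), and the alarmin gene Il33 by 2.54 ± 0.16 (adjusted p = 1.0e-09). Cxcl1, higher in all MCh than in all PBS libraries, was higher again with OVA, at 32.8 to 76.4 FPKM (3.1 ± 0.5, adjusted p = 1.9e-04).

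**Figure D5:**
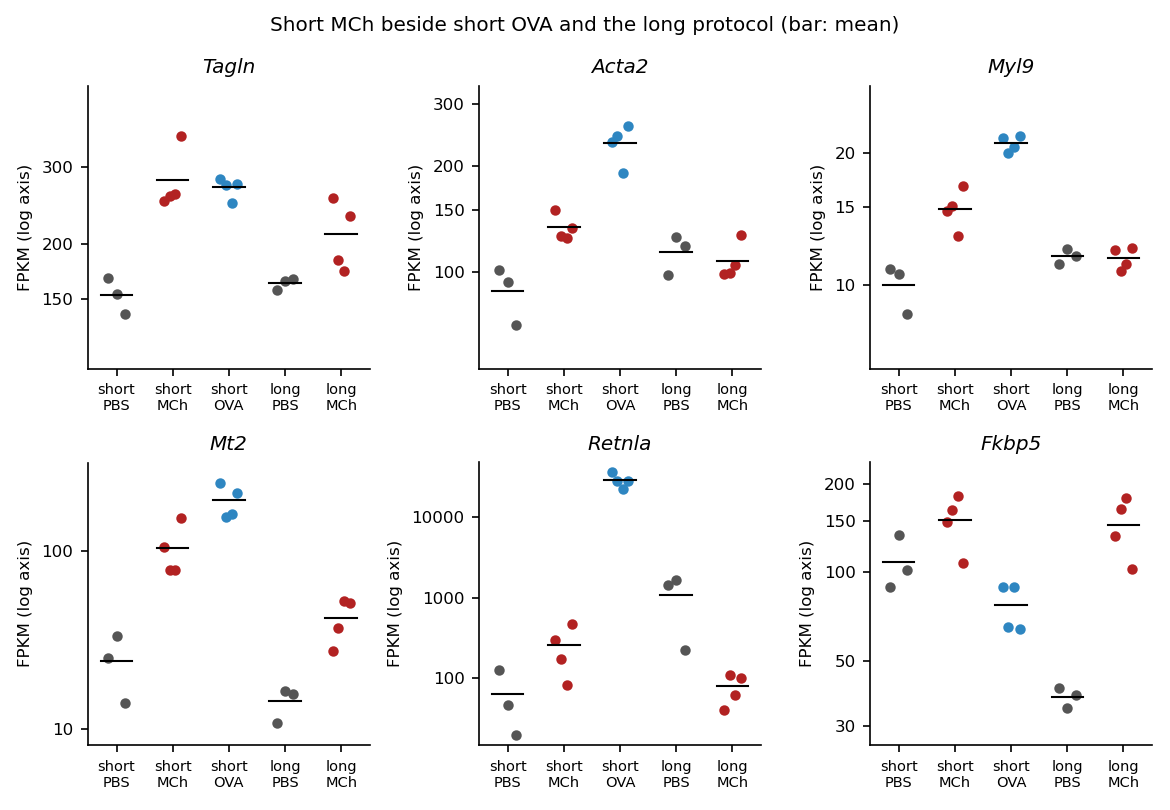
FPKM (y axis, log scale) of 6 genes in the short PBS, MCh and OVA and the long PBS and MCh libraries, 1 point per library and a bar at each group's mean. Tagln is higher in all short MCh and OVA libraries than in all short PBS libraries, the long MCh libraries of Acta2 and Myl9 overlap the long PBS libraries, and Retnla reaches 22790 to 36920 FPKM with OVA.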

How the data were processed

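The authors deposited FPKM values per gene and per transcript for 22 lung libraries; the submitters' processing notes name Trim Galore, STAR, DESeq2 and mm10, and the program that made the FPKM values is not given in the sources used here. Gene values equal the transcript value times a constant of each gene, the same in every library (6125 single-transcript genes compared, tolerance 0.001), so within-gene differences hold apart from the pseudocount. From the 20938 genes, those with at least 0.1 FPKM in at least 3 libraries were tested with limma 3.58.1 (R 4.3.3) on log2(FPKM + 0.5). The fit had 1 coefficient per group over 22 libraries and trended eBayes, two-sided, with a Benjamini-Hochberg adjusted p under 0.05. It was also run on simulated data in which each gene had the same spread in every library and no length trend. That run cannot show how the fit behaves with libraries like MCh 1 and 4. Since FPKM are not counts, no count model was used, and among the 7 libraries of the comparison the estimated depth was lowest in MCh library 1. All 22 columns were mapped to their groups by name. The last digits of the long MCh and OVA column names do not match the replicate numbers of the titles, so these columns were assigned to groups only. The 26 gene names that look like dates were left as they are. P-values measure the spread between these samples, which the labels call biological replicates. Coordinates and promoter windows come from RefSeq (GRCm38.p6, the mm10 assembly).

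The comparison, its gene lists and the tests were chosen with earlier results of these data known. Genes named are those called; the 10 higher and 10 lower with the smallest p and the 5 largest separated differences each way, among named genes with a mean of at least 1 FPKM; a set of key muscle, muscarinic, repair and allergy genes; up to 4 members of each list by p; and for the other comparisons the called and key genes and the 5 with the smallest p each way. From these the text describes a selection, and it adds separated list members and genes called under an alternative, chosen after their values were seen. Alternatives changed the pseudocount, the filter, the scaling, the weights, the libraries, the length trend and the table used.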

Additional observations from a re-analysis of the deposited data

Results flagged for a closer look

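Of 106 genes described in the text, 14 had 1 short MCh library far from the other 3 by Dixon's test on the log2(FPKM + 0.5) scale, where chance flags about 1 group in 20. The distant library was MCh library 4 for 9 of them and MCh library 1 for 3. In MCh library 4 Tagln read 353.1 FPKM against at most 260.1 FPKM in the others, Myl6 2556 FPKM against 1412 to 1503 FPKM, Pmvk 20.83 FPKM against 12.32 to 13.32 FPKM, and Sftpc 13050 FPKM against 6031 to 6373 FPKM, all high. Also there, Myocd read 0.1701 FPKM against 0.7966 to 0.9834 FPKM, Itpr1 5.946 FPKM against 15.8 to 17.2 FPKM, Nr1d1 18.94 FPKM against 42.18 to 49.37 FPKM, Pde4d 3.351 FPKM against 5.979 to 6.176 FPKM, and Crim1 46.8 FPKM against 81.54 to 90.48 FPKM, all low. In MCh library 1 Kcnmb1 read 16.26 FPKM against 6.877 to 7.13 FPKM, Gclm 16.29 FPKM against 13.84 to 14.01 FPKM, and Nfil3 2.464 FPKM against 1.915 to 1.929 FPKM, all high. Ahsa2 read 16.12 FPKM in MCh library 2 against 18.25 to 18.59 FPKM. Il13 was listed at 0.09817 FPKM in MCh library 3 and at 0 in the other 3.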

How the results depend on the processing

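For MCh against PBS, 1 gene passed with pseudocounts of 0.1 and 1, a minimum of 1 FPKM, quantile normalization, robust eBayes and without MCh libraries 1 and 4. It was 4 genes with no filter on low values (Mthfd2, Pmvk and Tagln higher, 1700123K08Rik lower), 340 with array weights, 3 with summed transcripts (Myl9, Pmvk and Tagln), 10 without the 4 libraries of low array weight, and 0 with median-of-ratios scaling, with the length trend removed, with the 11 short-protocol libraries and with the groups of the comparison only. Leaving out 1 library gave 0 to 2 genes, 0 of them without any of the PBS libraries or MCh libraries 2, 3 or 4, and Asns and Tagln without MCh library 1. The difference between protocols gave 1 gene with array weights, 2 without the 4 libraries and 0 to 1 when 1 library was left out. OVA against MCh gave 8984 genes with array weights, 4525 without MCh libraries 1 and 4, 7735 without the 4 libraries, and 1645 (without MCh library 3) to 4835 (without MCh library 4) when 1 library was left out. The causes were not tested.

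With a replicate block over the 11 short-protocol libraries 1 gene passed (Gm4070, lower) for MCh against PBS and 1981 for OVA against MCh. Same-numbered PBS and MCh libraries did not all deviate together: the correlations were -0.28 and -0.13 for numbers 1 and 2 and 0.38 for number 3. PBS library 1 correlated best with MCh library 4 (0.33) and PBS library 2 with MCh library 1 (0.43), the highest of the 12 pairs. No paired analysis was run for the difference between protocols, because the last digits of the long MCh column names do not match the replicate numbers of the titles.

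Over the 106 genes described and up to 22 alternatives each, no called difference changed sign. 2181 of these refits kept the side of the threshold and the direction, 64 passed it only in the alternative, 12 lost the Tagln call, and 68 that passed in neither changed sign. MCh library 1 listed 28.3% of the genes at 0, including 7 that reached 1 FPKM in all the other 6 libraries of the comparison. This limits low values in that library. Its estimated depth was 17450000 fragments. Long OVA library b, lettered in column order, listed 25.3% at 0 with 17100000 fragments. The cause was not tested.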
